A study of Mus musculus with 45 samples.

Results

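The chondroitin sulfate synthesis enzymes are the 10 genes Chpf, Chpf2, Chsy1, Chsy3, Csgalnact1, Csgalnact2, Chst11, Chst12, Chst15 and Dse, chosen by name among the 55401 genes counted in TRAP RNASeq of mouse kidney tubules. The list was drawn up because Chpf was higher in every Pkd1KO mouse, so the differences of Chpf between Pkd1KO mice and the other genotypes are given as a description and without a test. All 10 enzymes passed the filter on low counts in both sexes, which left 16131 protein-coding genes in at least 1 sex, 15991 in males and 15968 in females.

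Chondroitin sulfate is a long chain of alternating glucuronic acid and N-acetylgalactosamine carried by secreted and membrane proteoglycans. Its synthesis starts on a xylose-primed linker shared with heparan sulfate. The Csgalnact enzymes add the first N-acetylgalactosamine and so commit the linker to chondroitin, complexes of Chsy and Chpf proteins extend the chain, the Chst sulfotransferases place sulfate on it, and Dse turns glucuronic acid into iduronic acid, which makes dermatan sulfate. In the kidney such chains are found in the interstitial matrix and on epithelial surfaces.

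In TRAP, mRNA is recovered on ribosomes tagged with EGFP through their L10a subunit, and in these mice the tag is made only where Cre has acted. All 45 mice carried RosaEGFP-Rpl10a, Pax8rtTA and TetOCre, the last a doxycycline-dependent Cre driven through Pax8 in the nephron epithelium, received doxycycline from postnatal day 28 to 42 and were examined at postnatal day 49. The noncystic mice, wild type in the labels, were Pkd1fl/+ (8 males and 7 females) and so carried Cre and 1 floxed Pkd1 allele. Pkd1KO mice were Pkd1fl/fl (7 males, 8 females). Pkd1KO+ciliaKO mice were Pkd1fl/fl; Kif3afl/fl (9 males, 6 females) and lacked cilia as well. Each sample was 1 mouse. The comparison of Pkd1KO with both other genotypes asks which mRNAs depend on polycystin-1 in a way that also needs cilia, at a time before cysts had formed.

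Libraries held between 80874556 and 132958186 counts, so that 3 counts, the upper limit that a count of 0 allows for counting error, correspond to between 0.0234 and 0.0384 CPM. Levels below are read counts scaled to library size by TMM (CPM) unless named as TPM, and differences are log2 fold changes ± SE. Adjusted p values are those of the quasi-likelihood test of edgeR, corrected over all genes tested by Benjamini-Hochberg. The 9 proximal tubule markers summed to between 12560 and 24430 CPM in every library, against 40.64 to 183.3 CPM for the 5 podocyte markers and 0.3409 to 1.784 CPM for the 5 B cell markers. Kif3a, deleted only in Pkd1KO+ciliaKO mice, went against the label in 2 female libraries. The library labelled noncystic female 5 had 6.725 CPM where the other noncystic females had 22.88 or more, and the library labelled Pkd1KO+ciliaKO female 6 had 20.51 CPM where the rest of that group had at most 8.348. In males Kif3a was 4.832 to 7.538 CPM in Pkd1KO+ciliaKO mice and at least 13.95 CPM elsewhere. Pkd1 loses only its floxed exons, so its total count is a weak check: the difference between Pkd1KO and noncystic mice was -0.45 in males (adjusted p = 0.0991) and -0.22 in females (adjusted p = 0.418).

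The promoter windows of Chpf, whose level chose the list, and of Chst11, the enzyme that differed most often in the comparisons below, are shown from 250 bases before to 50 bases after the RefSeq start (GRCm38.p6). Capitals mark the GC box GGGCGG on either strand, and in Chpf also TGACGTCA, the cAMP response element, which does not overlap a GC box. The Chpf window lies at chr1:75479422-75479721 on the minus strand, beyond the end of Chpf as counted (75479307) and within the annotated Obsl1 gene, and that of Chst11 at chr10:82985247-82985546 on the plus strand. The Tmem198 gene, on the plus strand, starts inside the Chpf window at 75479532.
Chpf: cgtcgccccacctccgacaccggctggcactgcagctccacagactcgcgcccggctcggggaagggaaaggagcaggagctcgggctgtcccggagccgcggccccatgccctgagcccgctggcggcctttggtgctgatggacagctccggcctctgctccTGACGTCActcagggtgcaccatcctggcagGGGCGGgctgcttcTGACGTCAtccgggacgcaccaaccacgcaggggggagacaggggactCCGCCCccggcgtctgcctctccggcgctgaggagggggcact
Chst11: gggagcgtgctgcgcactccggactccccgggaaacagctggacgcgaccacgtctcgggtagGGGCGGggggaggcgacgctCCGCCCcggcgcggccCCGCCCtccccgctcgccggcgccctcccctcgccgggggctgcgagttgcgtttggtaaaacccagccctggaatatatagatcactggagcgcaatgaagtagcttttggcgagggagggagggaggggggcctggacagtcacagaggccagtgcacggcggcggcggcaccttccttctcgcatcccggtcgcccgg

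Both windows were rich in CpG, with 26 in Chpf and 34 in Chst11 against a median of 7 over 32851 promoter windows of the same length. Chpf held 2 GC boxes and Chst11 held 3, and 19.5% of all windows held at least 2. The palindrome TGACGTCA occurred 2 times in the Chpf window, starting at bases 165 and 210, and was searched after the Chpf sequence had been read. It was in 1.79% of all windows, and 0.0396% held 2 or more. None of the windows searched for the other 7 enzymes held it. Those of Csgalnact1 and Chsy3 were not analysed here. No enzyme window held the GLI site GACCACCCA, present in 0.253% of all windows, or the androgen receptor half-site AGAACA, present in 19.0%, on either strand. A match is a description of the letters and not of binding.

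Chpf, the chondroitin polymerizing factor that works with a Chsy enzyme in chain extension, lies on the minus strand of chromosome 1 (GRCm38.p6, 75474569 to 75479307; ENSMUSG00000032997.16). In males it had 10.83 to 15.4 CPM in noncystic mice (median 13.34), 19.0 to 36.37 CPM in Pkd1KO mice (median 28.75) and 11.46 to 16.7 CPM in Pkd1KO+ciliaKO mice (median 15.48). In females the same groups had 12.48 to 20.86 CPM (median 15.35), 24.58 to 39.19 CPM (median 28.74) and 13.8 to 19.33 CPM (median 17.04). In both sexes the lowest Pkd1KO mouse stood above the highest mouse of either other genotype. This is the pattern by which the list was chosen. Of the 15828 genes kept in both sexes, 0.133% had it in males and 0.31% in females, and 10 had it in both (0.0632%), namely Ablim1, Arpin, Cables2, Chpf, Glis2, Pcdh7, Pkd2, Sema3c, Sgcd and Slc25a21.

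Expressed as a fold change, Chpf was 2.1-fold higher in Pkd1KO than in noncystic males (log2 1.07 ± 0.13) and 1.85-fold higher in females (0.89 ± 0.12). Against Pkd1KO+ciliaKO mice it was 1.92-fold higher in males (0.94 ± 0.12) and 1.74-fold higher in females (0.80 ± 0.11). Without the 2 female libraries that went against their Kif3a label, the female values were 0.95 and 0.75. Groups that did not overlap, with Pkd1KO mice higher, were found in 1.4% and 0.664% of all genes against noncystic males and females and in 0.663% and 2.2% against Pkd1KO+ciliaKO males and females. The comparison the choice of Chpf did not use is that of Pkd1KO+ciliaKO with noncystic mice, where the difference was 0.13 ± 0.09 in males (adjusted p = 0.376) and 0.08 ± 0.13 in females (adjusted p = 0.75). Chpf did not pass the test between the sexes in any genotype, with male minus female differences of -0.24, -0.08 and -0.21 in noncystic, Pkd1KO and Pkd1KO+ciliaKO mice and adjusted p values of 0.133, 0.712 and 0.149.

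**Figure D1:**
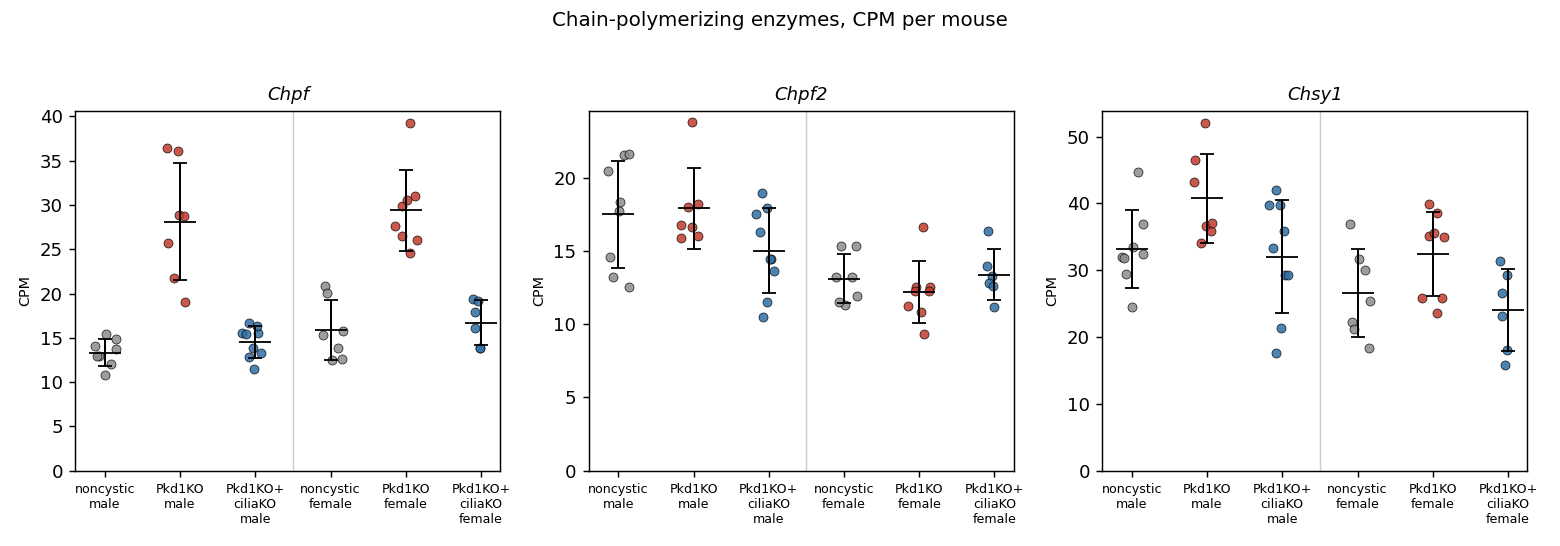
Level of Chpf, Chpf2 and Chsy1 in each mouse, in TMM-scaled CPM, for the 6 groups of genotype and sex. Points are mice and the bars give mean ± SD. Chpf in Pkd1KO mice sits at 19.0 CPM or higher in males and 24.58 CPM or higher in females, above the mice of both other genotypes, while the groups overlap for Chpf2 and Chsy1.

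Chpf2, the paralog of Chpf that also pairs with Chsy enzymes, did not follow it. Noncystic males had 12.55 to 21.59 CPM (median 18.03), Pkd1KO males 15.86 to 23.82 CPM (median 16.78) and Pkd1KO+ciliaKO males 10.51 to 18.95 CPM (median 14.43), and the female medians were 13.19, 12.27 and 13.03 CPM. All genotypes overlapped. The Pkd1KO against noncystic difference was 0.03 ± 0.13 in males and -0.11 ± 0.10 in females, with 95% intervals of -0.23 to 0.29 and -0.31 to 0.10.

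Chsy1, the main bifunctional polymerase, had 24.47 to 44.71 CPM in noncystic males (median 32.21), 34.02 to 52.02 CPM in Pkd1KO males (median 37.13) and 17.63 to 41.99 CPM in Pkd1KO+ciliaKO males (median 33.27). In females the ranges were 18.31 to 36.91, 23.64 to 39.83 and 15.84 to 31.31 CPM, with medians of 25.36, 35.01 and 24.86. The Pkd1KO medians were the highest in both sexes, and the groups overlapped in every comparison. The 4 differences were 0.29 ± 0.12 against noncystic males (adjusted p = 0.151), 0.28 ± 0.15 against noncystic females (adjusted p = 0.375), 0.34 ± 0.16 against Pkd1KO+ciliaKO males (adjusted p = 0.238) and 0.41 ± 0.16 against Pkd1KO+ciliaKO females (adjusted p = 0.103). None of the 4 passed. With limma voom and sample weights the last was 0.54 with an adjusted p of 0.0266. Chsy3, another bifunctional polymerase, was the lowest of the enzymes in CPM, with 0.2198 to 0.8102 CPM over all mice.

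Per unit of gene length, Chpf ranked below Chsy1 and above Chpf2 by group mean in every group. Its mean TPM was 10.28 in noncystic, 20.99 in Pkd1KO and 11.89 in Pkd1KO+ciliaKO males, and 13.41, 25.2 and 15.51 in females. Chsy1 had 23.44, 28.0 and 23.86 TPM in males and 20.81, 25.62 and 20.7 TPM in females. The mean ratio of Chpf to Chsy1 TPM was 0.445, 0.748 and 0.518 in noncystic, Pkd1KO and Pkd1KO+ciliaKO males and 0.691, 1.01 and 0.801 in females. The ratio of Chpf to Chpf2 ranged from 1.718 to 3.142 in Pkd1KO males, which overlapped only with Pkd1KO+ciliaKO mice (1.12 to 1.77) among the males, and from 3.008 to 4.108 in Pkd1KO females, above the other females, whose highest was 2.625. These ratios contain the Chpf values that chose the list and are given without a test.

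**Figure D2:**
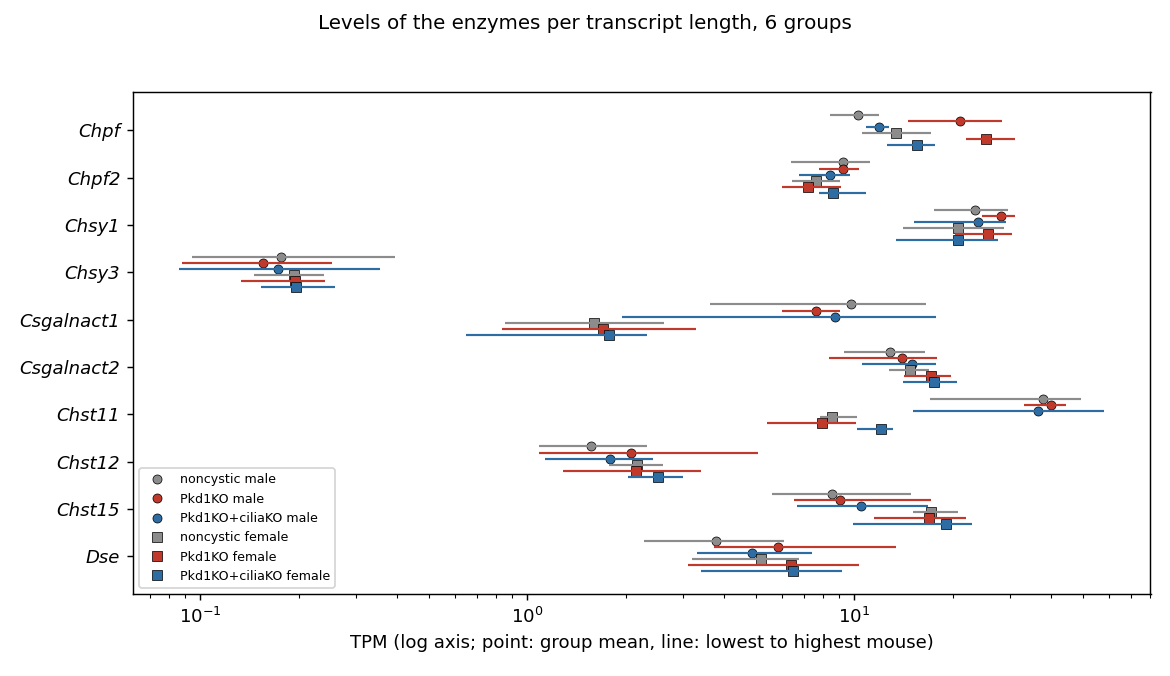
Mean TPM of the 10 enzymes in each group on a log axis, with lines from the lowest to the highest mouse. TPM was normalized separately in each sex. Chst11 leads in males at 36.54 to 39.86 TPM and stands at 7.986 to 12.09 TPM in females, while Chsy3 stays below 0.2 TPM in every group mean.

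The order of the enzymes by TPM differed between the sexes. In noncystic males Chst11 (37.78 TPM) and Chsy1 (23.44 TPM) led, followed by Csgalnact2 (12.86), Chpf (10.28), Csgalnact1 (9.744), Chpf2 (9.231) and Chst15 (8.514), with Dse, Chst12 and Chsy3 at 3.763, 1.568 and 0.1766 TPM. In noncystic females Chsy1 led with 20.81 TPM, then Chst15 (17.17), Csgalnact2 (14.84), Chpf (13.41), Chst11 (8.535) and Chpf2 (7.656). The mouse ranges of Csgalnact2, Chpf, Csgalnact1, Chpf2 and Chst15 overlapped in noncystic males, as did those of Chsy1, Chst15, Csgalnact2 and Chpf in noncystic females. The 10 enzymes together had 117.4, 136.8 and 121.7 TPM in noncystic, Pkd1KO and Pkd1KO+ciliaKO males and 91.55, 110.5 and 104.5 TPM in females. Chpf made up 8.793, 15.27 and 10.09% of that sum in males and 14.67, 22.89 and 14.94% in females.

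Apart from Chpf, none of the enzymes passed the test between Pkd1KO and noncystic mice. Of 9 other enzymes, 0 passed in males, where 6.3% of all genes did, and 0 in females, where 3.34% did. At an unadjusted p under 0.05 there were 2 in males (Chsy1 and Dse), where 3536 of 15991 genes were. In females there was 1 (Csgalnact2), where 2612 of 15968 genes were. DESeq2 and limma voom also called 0 in each sex. The median difference of the 9 was 0.12 in males, with 7 above 0, against -0.01 over all genes tested, and -0.01 in females, with 4 above 0, against a median of -0.0008 over all genes. Against Pkd1KO+ciliaKO mice 0 of 9 passed in males, with a background of 3.77%, and 0 by DESeq2 and limma voom. At an unadjusted p under 0.05 there was 1, where 3153 of 15991 genes were. In females 1 of 9 passed, with a background of 11.7%, by edgeR and DESeq2, and 2 by limma voom. Because both comparisons use the Pkd1KO mice, their values are not independent of each other.

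**Figure D3:**
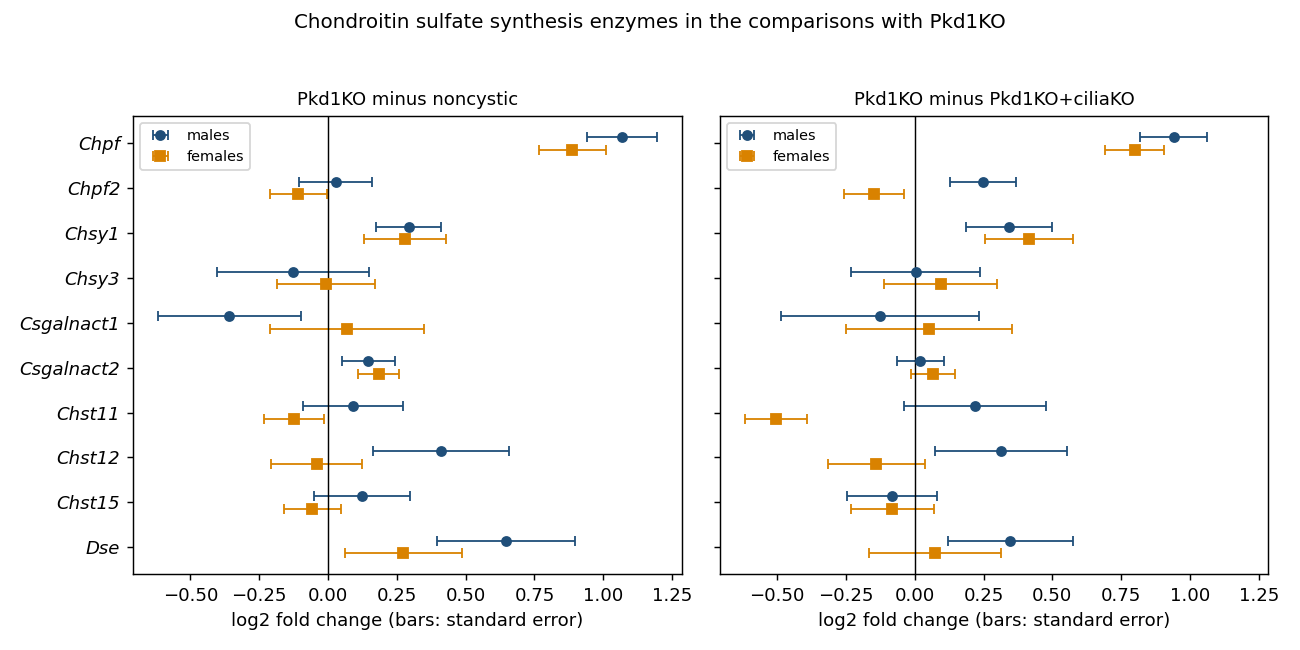
Log2 fold change ± SE of the 10 enzymes for Pkd1KO minus noncystic and Pkd1KO minus Pkd1KO+ciliaKO mice, males as circles and females as squares. Chpf stands at 0.80 to 1.07 in all 4, the other enzymes between -0.50 and 0.65, and Chst11 lies below 0 in females.

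The enzymes that start the chain differed little by genotype. Csgalnact2 had 17.75 to 25.78 CPM in noncystic males (median 24.27) and 18.81 to 29.8 CPM in Pkd1KO males (median 27.53), and 21.47 to 27.44 CPM (median 24.64) and 23.44 to 32.05 CPM (median 28.53) in the corresponding females. The groups overlapped, with differences of 0.15 ± 0.10 in males (adjusted p = 0.402) and 0.18 ± 0.07 in females (adjusted p = 0.21). Csgalnact1 varied widely among males, from 5.243 to 29.75 CPM in noncystic and from 12.31 to 15.32 CPM in Pkd1KO mice, a difference of -0.36 ± 0.26 (adjusted p = 0.45).

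Dse, the epimerase, had 3.935 to 8.706 CPM in noncystic males (median 6.309) and 6.487 to 20.5 CPM in Pkd1KO males (median 7.664), an overlapping pair of groups with a difference of 0.65 ± 0.25 (adjusted p = 0.138). Pkd1KO male 4 gave the value of 20.5 CPM, and also the highest Chst12, a 4-O-sulfotransferase, at 3.688 CPM, and the highest Chst15 among males at 35.69 CPM. In that library the 8 fibroblast markers summed to 1152 CPM where the next Pkd1KO male had 593.4, the 8 macrophage markers to 452.1 CPM where the next had 141.5, the 8 endothelial markers to 505.8 CPM where the next had 191.6, and no marker of these lists was at 0 in all mice. Their part in the Dse value was not tested. Without the 4 males that stood apart from the others (Pkd1KO male 4, noncystic male 3 and Pkd1KO+ciliaKO males 6 and 8) the difference of Dse was 0.46 (adjusted p = 0.195), and against Pkd1KO+ciliaKO males it moved from 0.35 to -0.02. These 4 were named without a fixed rule and include mice extreme in the enzymes tested, so fits without them are a description. Fewer cells of a type and less RNA per cell cannot be told apart in these bulk samples.

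Chst11, a 4-O-sulfotransferase, was the 1 of 9 enzymes that passed between Pkd1KO and Pkd1KO+ciliaKO females, where 11.7% of all genes did. It was lower in Pkd1KO than in Pkd1KO+ciliaKO females. Noncystic females had 12.63 to 17.02 CPM (median 13.82), Pkd1KO females 9.34 to 17.0 CPM (median 13.25) and Pkd1KO+ciliaKO females 15.95 to 20.97 CPM (median 18.52). Of 8 Pkd1KO females, 7 lay below the lowest Pkd1KO+ciliaKO female. The difference was -0.50 ± 0.11 (adjusted p = 0.00966), it passed under each of 24 alternatives with adjusted p values between 6.498e-04 and 0.0422, and it was -0.54 (adjusted p = 0.00961) without the 2 libraries that went against their Kif3a label.

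Pkd1KO+ciliaKO females also exceeded noncystic females in Chst11 by 0.37 ± 0.08 (adjusted p = 0.027), 1 of 9 enzymes where 2.54% of all genes passed. This call was lost without any 1 of 6 mice: noncystic female 2 (adjusted p = 0.0624), 6 (0.0583) or 7 (0.0561), or Pkd1KO+ciliaKO female 2 (0.0652), 3 (0.0722) or 4 (0.0648). Without the 2 libraries against their Kif3a label it was 0.45 (adjusted p = 0.00411). Pkd1KO females and noncystic females differed by -0.12 ± 0.11 (adjusted p = 0.653). In males the Pkd1KO+ciliaKO against noncystic comparison called 0 of 9 enzymes, where 8.89% of all genes passed, and 0 by DESeq2 and limma voom. At an unadjusted p under 0.05 there were 0, where 3887 of 15991 genes were. Chst11 in males differed by 0.22 ± 0.26 between Pkd1KO and Pkd1KO+ciliaKO mice (adjusted p = 0.675). The difference between the sexes in that contrast was 0.71 ± 0.30 and did not pass (adjusted p = 0.512). Median sums of segment markers also differed in Pkd1KO+ciliaKO females. The 9 proximal tubule markers summed to 15380 CPM against 17470 in noncystic and 17290 in Pkd1KO females, and the 5 thick ascending limb markers to 4580 CPM against 3754 and 3615. Their part in the Chst11 result was not tested.

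More of the enzymes passed between the sexes than between genotypes, and the same held for the share over all genes. Between noncystic males and females 4 of 9 enzymes other than Chpf passed, where 27.3% of all genes did; between Pkd1KO males and females 4 of 9, where 27.1% did; and between Pkd1KO+ciliaKO males and females 3 of 9, where 14.6% did. Csgalnact1, Chst11 and Chpf2 were higher in males and Chst15 in females. Csgalnact1, Chst11 and Chst15 passed in each genotype and Chpf2 in noncystic and Pkd1KO mice, and each of these calls was kept in all alternatives run. Of the 9 enzymes other than Chpf, 0 passed either sex by genotype interaction, fitted over all 45 mice, by edgeR, DESeq2 or limma voom. For Pkd1KO against noncystic 0.0124% of all genes passed. There 0 of the enzymes were at an unadjusted p under 0.05, where 1333 of 16131 genes were. For Pkd1KO against Pkd1KO+ciliaKO 0.223% of all genes passed. There 2 of the enzymes, Chpf2 and Chst11, were at an unadjusted p under 0.05, where 1321 of 16131 genes were.

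Chst11 had 26.81 to 95.68 CPM in noncystic males (median 71.83), 62.1 to 86.19 CPM in Pkd1KO males (median 75.55) and 22.48 to 101.0 CPM in Pkd1KO+ciliaKO males (median 66.59), while no female exceeded 20.97 CPM. Males and females did not overlap, with males higher, as in 3.4%, 3.89% and 1.52% of all genes in noncystic, Pkd1KO and Pkd1KO+ciliaKO mice. The male level was 4.98-fold higher in noncystic (log2 2.32 ± 0.19, adjusted p = 1.365e-07), 5.72-fold higher in Pkd1KO (2.52 ± 0.12, adjusted p = 1.77e-10) and 3.47-fold higher in Pkd1KO+ciliaKO mice (1.80 ± 0.29, adjusted p = 8.748e-04).

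Csgalnact1 had medians of 18.2, 12.67 and 13.18 CPM in noncystic, Pkd1KO and Pkd1KO+ciliaKO males and of 2.376, 2.365 and 2.652 CPM in females. Only in Pkd1KO+ciliaKO mice did the sexes overlap, where 8 of 9 males lay above all females. The differences were 2.78 ± 0.33 (adjusted p = 7.609e-06), 2.33 ± 0.24 (adjusted p = 2.336e-06) and 2.52 ± 0.46 (adjusted p = 0.00194). Its relative Csgalnact2, which has the same activity, had 25.53 CPM on average in Pkd1KO+ciliaKO males and 26.52 CPM in females, and did not pass between the sexes in any genotype.

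Chst15, which adds a further sulfate to 4-sulfated units to make chondroitin sulfate E, ran the other way. Noncystic males had 13.77 to 28.65 CPM (median 18.53) and noncystic females 30.95 to 42.01 CPM (median 35.89), with no overlap, as in 2.65% of all genes in this direction. The female level was 1.85-fold higher in noncystic mice (male minus female -0.89 ± 0.12, adjusted p = 3.596e-05), 1.65-fold higher in Pkd1KO mice (-0.72 ± 0.16, adjusted p = 0.00332, 6 of 7 males below all females) and 1.65-fold higher in Pkd1KO+ciliaKO mice (-0.72 ± 0.16, adjusted p = 0.00595, 4 of 9 males below all females). Chst15 lies within the annotated span of Fgfr2 on the same strand. Whether their exons overlap was not examined, so reads of the pair may not have been told apart in counting.

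Chpf2 was higher in males by 0.43 ± 0.13 in noncystic (adjusted p = 0.0194) and 0.55 ± 0.11 in Pkd1KO mice (adjusted p = 0.00184), and by 0.15 ± 0.12 in Pkd1KO+ciliaKO mice (adjusted p = 0.427). Chpf2 overlaps Smarcd3 on the opposite strand over 3739 bases, and Smarcd3 was lower in noncystic males by -0.41 (adjusted p = 0.0424). Chsy1 differed by 0.33, 0.32 and 0.40 in the 3 genotypes (adjusted p = 0.106, 0.0689 and 0.172). It passed in Pkd1KO mice with DESeq2 (0.33, adjusted p = 0.0432) and without Pkd1KO female 8 (0.37, adjusted p = 0.0447). In noncystic mice it passed without noncystic female 4 (0.43, adjusted p = 0.0295). Chst12 differed by -0.33 in noncystic mice (adjusted p = 0.0883) and passed without noncystic male 3 (-0.39, adjusted p = 0.0355). With limma voom Chst12 (-0.37, adjusted p = 0.0237) and Dse (-0.49, adjusted p = 0.0272) also passed in noncystic mice.

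**Figure D4:**
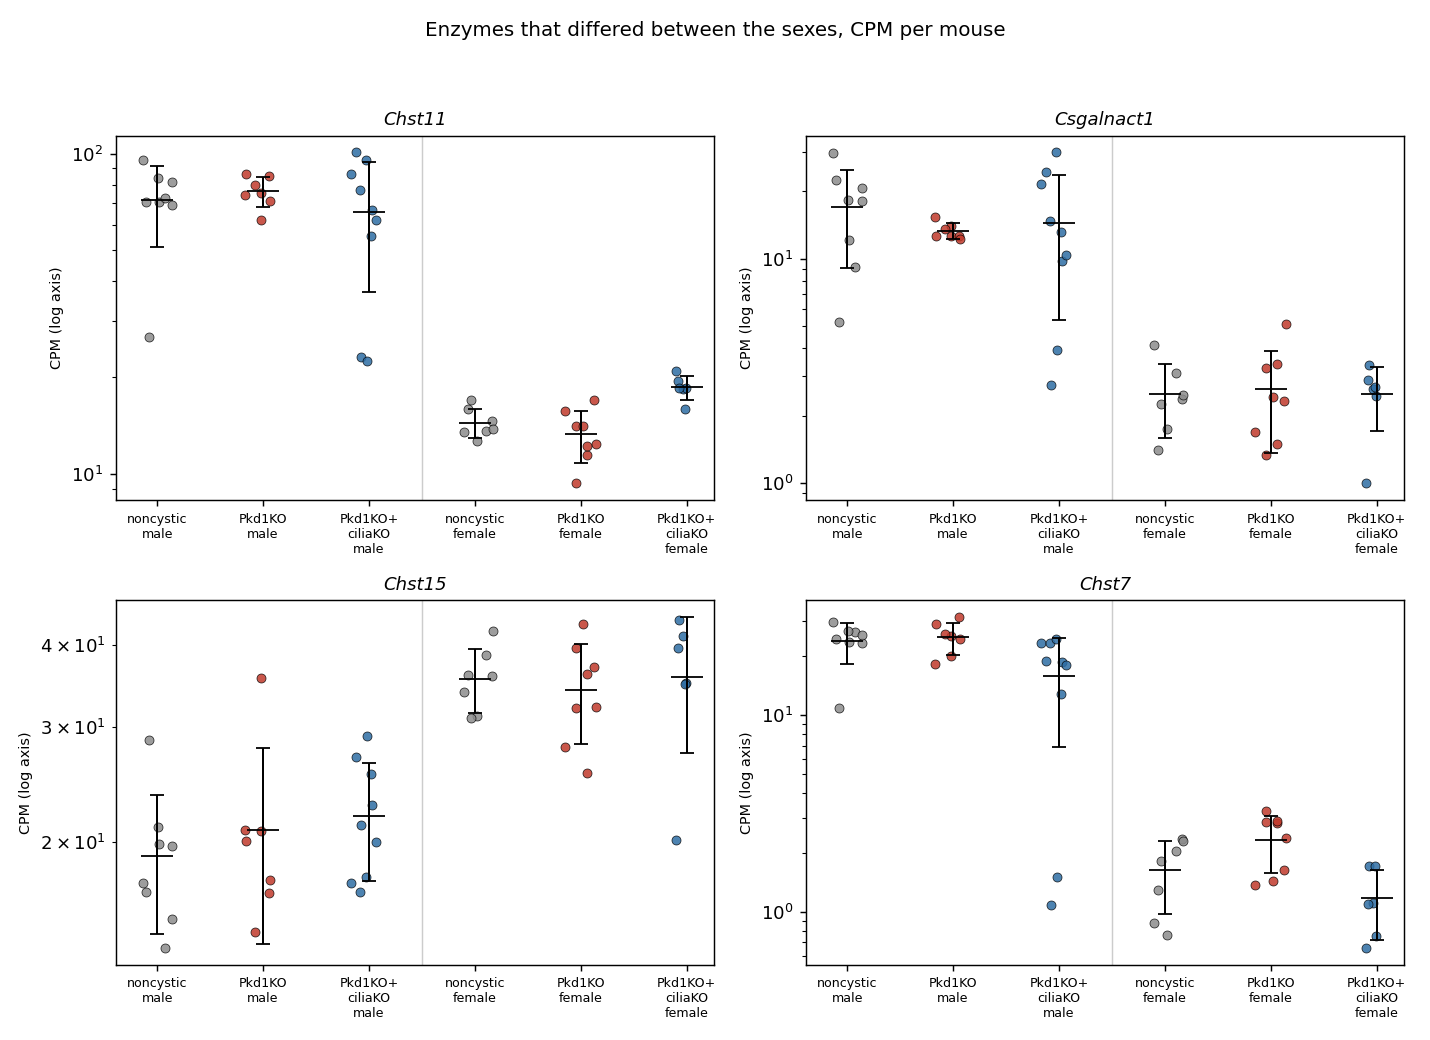
Level of Chst11, Csgalnact1, Chst15 and Chst7 in each mouse, in TMM-scaled CPM on a log axis, by group. Chst11 separates males (22.48 CPM or more) from females (20.97 CPM or less), Csgalnact1 and Chst7 have 3 males below the others, and Chst15 is higher in females.

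A set of 3 males lay below all other males in Chst11 and Csgalnact1. These 3 carry the lowest mouse numbers of the series, and none of them is a Pkd1KO mouse. What the mouse numbers stand for is not given in the labels, and their part in these values was not tested. Chst11 was 26.81 CPM in noncystic male 3, 23.21 CPM in Pkd1KO+ciliaKO male 6 and 22.48 CPM in Pkd1KO+ciliaKO male 8, where the other males had 55.14 CPM or more. Csgalnact1 in the same libraries was 5.243, 2.752 and 3.907 CPM, where the other males had 9.174 CPM or more. Chpf2, the other enzyme that was higher in males, was 13.21, 10.51 and 11.52 CPM there, and 12.55 CPM in noncystic male 5. Chst7, a 6-O-sulfotransferase, was 10.91, 1.087 and 1.505 CPM, and Galns, which removes sulfate from N-acetylgalactosamine, was 66.17, 36.74 and 39.6 CPM. The proximal tubule marker sums of these males were 16970, 14870 and 15710 CPM, below the medians of their groups (22400 and 17310), and their part in these values was not tested. Across mice, after subtracting group means of log2(CPM + 0.1), Csgalnact1 and Chst11 had a correlation of 0.91 over 24 males and -0.05 over 21 females. It was 0.35 over the 39 mice left after taking out the 4 males that stood apart and the 2 discordant females.

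Chst12, Chst15 and Dse had positive correlations with each other in both sexes. By the same measure Chst15 and Dse had a correlation of 0.71 over 24 males and 0.71 over 21 females, and 0.73 over 39 mice. Chst12 and Dse had 0.70 in males, 0.57 in females and 0.56 over the 39 mice. Chst12 and Chst15 had 0.74 in males, 0.44 in females and 0.49 over the 39 mice. Chpf and Chsy1 differed between the sexes, with 0.52 in males, -0.0029 in females and 0.19 over the 39 mice. These are descriptions over mice that share library depth and cell composition.

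The enzymes that build the linker on which the chain starts were covered by 7 genes. Of these, 0 passed against noncystic mice in either sex (0 and 1 at an unadjusted p under 0.05), 2 were higher in Pkd1KO than in Pkd1KO+ciliaKO males and 3 in females. An unadjusted p under 0.05 against noncystic mice was found for 3536 of 15991 genes in males and 2612 of 15968 in females. Over all genes 6.3% and 3.34% passed against noncystic males and females, and 3.77% and 11.7% against Pkd1KO+ciliaKO males and females, and the difference between the comparisons was not tested. The median differences in the latter were 0.07 and 0.26, against 0.01 and -0.01 over all genes. B3galt6, which adds the second galactose of the linker, had 3.257 to 5.226 CPM in Pkd1KO males and 2.111 to 2.984 CPM in Pkd1KO+ciliaKO males, and 3.334 to 4.658 against 2.499 to 3.138 CPM in females. The groups did not overlap in either sex, as in 0.663% of all genes in males and 2.2% in females in this direction. The differences were 0.57 ± 0.12 (adjusted p = 0.0102) and 0.38 ± 0.10 (adjusted p = 0.0198), and B3galt6 was also lower in Pkd1KO+ciliaKO than in noncystic males by -0.47 (adjusted p = 0.00402).

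Xylt2, a xylosyltransferase that places the first linker sugar, was higher in Pkd1KO than in Pkd1KO+ciliaKO mice by 0.41 ± 0.10 in males (adjusted p = 0.0264) and 0.37 ± 0.10 in females (adjusted p = 0.0262). The male call was lost without Pkd1KO male 2 (0.34, adjusted p = 0.0526) or Pkd1KO male 5 (0.40, adjusted p = 0.0547). The female call was lost without Pkd1KO+ciliaKO female 3 (0.30, adjusted p = 0.0671) or 6 (0.35, adjusted p = 0.0503).

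The supply of sugar and sulfate donors was covered by 13 genes. Against noncystic mice 1 was higher in Pkd1KO males and 2 in Pkd1KO females, and against Pkd1KO+ciliaKO mice 0 in males (2 at an unadjusted p under 0.05) and 3 in females, out of 13 each time. The shares over all genes in the same order were 6.3, 3.34, 3.77 and 11.7%. An unadjusted p under 0.05 against Pkd1KO+ciliaKO males was found for 3153 of 15991 genes. Uxs1, the synthase of the UDP-xylose that Xylt enzymes use, was among them in 3 of the 4. It had 37.15 to 50.75 CPM in noncystic females (median 48.11), 53.9 to 85.57 CPM in Pkd1KO females (median 63.85) and 30.59 to 46.66 CPM in Pkd1KO+ciliaKO females (median 41.6). Every Pkd1KO female lay above all other females, as in 0.31% of genes. The differences were 0.50 ± 0.10 (adjusted p = 0.00719) and 0.67 ± 0.11 (adjusted p = 0.00223). In males noncystic mice had 36.43 to 49.33 CPM and Pkd1KO mice 45.99 to 63.55 CPM, overlapping groups with a difference of 0.32 ± 0.08 (adjusted p = 0.0259), lost without noncystic male 1 (0.30, adjusted p = 0.0523), noncystic male 2 (0.31, adjusted p = 0.0511) or Pkd1KO male 3 (0.26, adjusted p = 0.0512). Slc26a2, a sulfate transporter, was higher in Pkd1KO than in noncystic females by 0.32 (adjusted p = 0.0117).

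**Figure D5:**
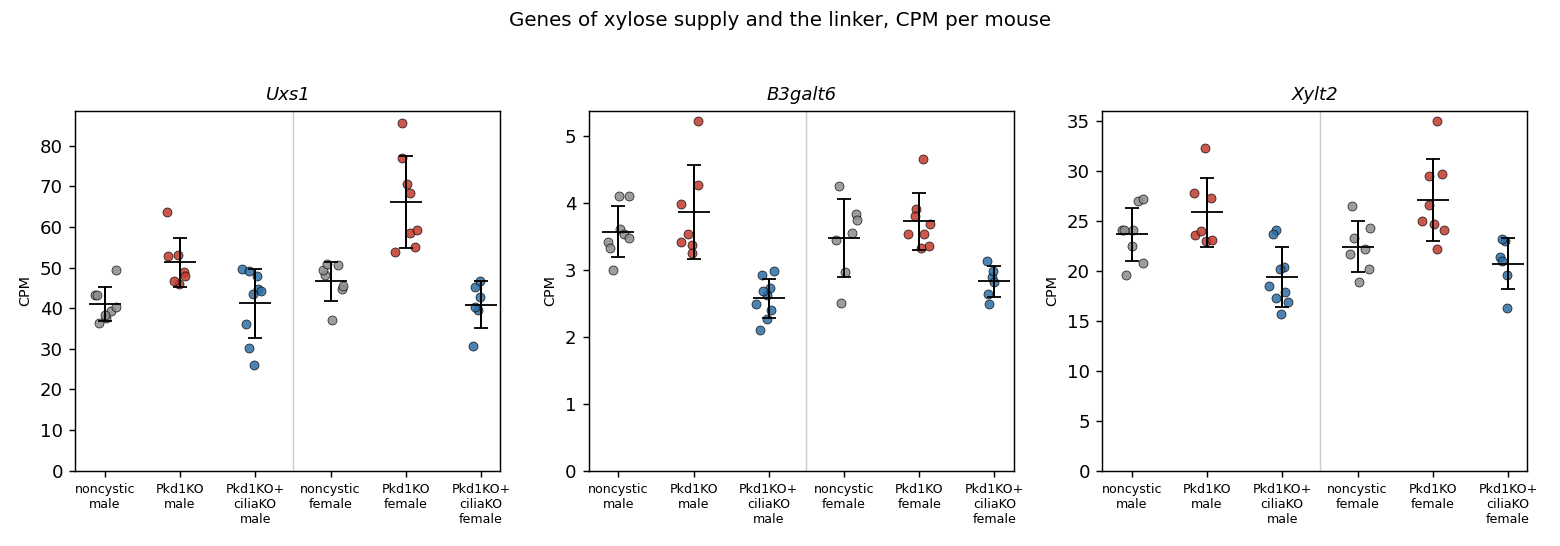
Level of Uxs1, B3galt6 and Xylt2 in each mouse, in TMM-scaled CPM, by group, with mean ± SD. Pkd1KO females lie at 53.9 CPM or more for Uxs1, above the other females, and B3galt6 in Pkd1KO+ciliaKO mice stays at or below 3.138 CPM.

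Of the 6 other enzymes that modify chondroitin or dermatan, 2 were higher in Pkd1KO than in Pkd1KO+ciliaKO females, both 6-O-sulfotransferases. Chst3 had 11.15 to 31.83 CPM in Pkd1KO and 3.725 to 14.31 CPM in Pkd1KO+ciliaKO females (0.97, adjusted p = 0.0269), a call lost without Pkd1KO+ciliaKO female 3 (adjusted p = 0.0598) or 5 (adjusted p = 0.0525). Chst7 had 1.376 to 3.267 and 0.6551 to 1.722 CPM (0.97, adjusted p = 0.0274), lost without Pkd1KO+ciliaKO female 2 (adjusted p = 0.0544), 3 (adjusted p = 0.0653) or 4 (adjusted p = 0.0581). Against noncystic mice 0 of the 6 passed in either sex, with 2 in males and 1 in females at an unadjusted p under 0.05. The 9 breakdown genes gave 0 calls against noncystic mice in males and 0 in females, with 1 and 2 at an unadjusted p under 0.05. Against Pkd1KO+ciliaKO mice 1 passed in males, the glucuronidase Gusb, higher by 0.89, and 0 in females, with 0 at an unadjusted p under 0.05. Over all genes 6.3% and 3.34% passed against noncystic males and females, and 3.77% and 11.7% against Pkd1KO+ciliaKO males and females. An unadjusted p under 0.05 was found for 3536 of 15991 genes against noncystic males and 2612 of 15968 against noncystic females. Against Pkd1KO+ciliaKO females it was found for 4419 of 15968.

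Of 25 genes of core proteins that carry such chains, 21 were tested, and 4 were higher in Pkd1KO than in noncystic males: Cd44, Sdc1, Csf1 and Cd74. Over all genes 6.3% passed in that comparison. Cd74 and Csf1 did not pass without the 4 males that stood apart (adjusted p = 0.121 and 0.0862). They were also lost in 9 and 7 of the 15 fits that left out 1 mouse, and with limma voom (adjusted p = 0.132 and 0.094). Cd44 did not pass without Pkd1KO male 3 (adjusted p = 0.0511), and Sdc1 not without noncystic male 2 (adjusted p = 0.0516) or Pkd1KO male 3 (adjusted p = 0.0512). With limma on log2(TPM + 1) Cd44, Sdc1, Csf1 and Cd74 all did not pass (adjusted p = 0.15, 0.164, 0.1825 and 0.171). None of the 21 passed in females, where 3.34% of all genes did. At an unadjusted p under 0.05 there were 2, where 2612 of 15968 genes were. Of the 18 heparan sulfate genes, which use the same linker, 17 were tested. Against Pkd1KO+ciliaKO mice 2 were lower and 0 higher in Pkd1KO males, and 3 were lower and 1 higher in Pkd1KO females. Over all genes 3.77% passed in males and 11.7% in females. Extl1, a glycosyltransferase of heparan synthesis, had 1.331 to 1.913 CPM in Pkd1KO and 2.453 to 7.272 CPM in Pkd1KO+ciliaKO males (-1.25, adjusted p = 0.00664), and was lower by -1.03 in females (adjusted p = 0.0113). Extl2, its relative, was lower by -0.23 in males (adjusted p = 0.0415), a call lost in 14 of the 16 fits that left out 1 mouse, where adjusted p values reached 0.091, and by -0.32 in females (adjusted p = 0.0144). Hs6st1, a heparan sulfotransferase, was lower in Pkd1KO than in Pkd1KO+ciliaKO females by -0.49 (adjusted p = 0.00883), and lower than in noncystic females by -0.34 (adjusted p = 0.0288), the latter lost in 7 of the 15 fits that left out 1 mouse, with adjusted p values up to 0.0641.

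Between Pkd1KO+ciliaKO and noncystic mice 8.89% of all genes passed in males and 2.54% in females. The genes named here are only some of those in these lists that passed. Extl1 was higher in Pkd1KO+ciliaKO males by 1.09 (adjusted p = 0.00634). The core protein Cspg5 was lower by -0.71 (adjusted p = 0.00669). Dsel, a relative of Dse, was higher by 0.44 (adjusted p = 0.0392), lost in 10 of the 17 fits that left out 1 mouse, with adjusted p values up to 0.0787. Gusb also passed in males and was lower in Pkd1KO+ciliaKO mice. Over 27 alternatives its difference was -0.92 to -0.67, and it passed in 26. Csf1 was higher in Pkd1KO+ciliaKO males, by 0.47 to 0.61 over 27 alternatives, and passed in 26. In females Uap1, which makes the UDP-N-acetylhexosamine donor, was lower by -0.29 (adjusted p = 0.0401), lost in 10 of 13 such fits, with adjusted p values up to 0.0924.

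Genes of these lists also passed between noncystic males and females, where 27.3% of all genes did. Chst7 had medians of 25.04, 25.12 and 18.72 CPM in noncystic, Pkd1KO and Pkd1KO+ciliaKO males and of 1.816, 2.602 and 1.105 CPM in females, with differences of 3.88, 3.41 and 3.72 (adjusted p = 1.845e-08, 5.482e-09 and 9.563e-04). Of the 13 supply genes, 8 passed between noncystic males and females, 7 of them higher in males, among them Slc35d2, a nucleotide sugar transporter (1.17, adjusted p = 3.459e-05). Papss2, a synthase of the sulfate donor, was higher in noncystic females (-0.49 male minus female, adjusted p = 9.406e-04), while its relative Papss1 was higher in noncystic males (0.51, adjusted p = 3.206e-04). Xylt1 was the linker gene that passed in noncystic mice, higher in males by 0.73 (adjusted p = 6.37e-04). The core protein Cd44 was lower in noncystic males by -1.24 (adjusted p = 8.74e-05), and the heparan sulfotransferase Hs6st2 was higher by 0.79 (adjusted p = 0.0025). In Pkd1KO mice the smallest p in 3 lists belonged to genes lower in males: the xylose phosphatase Pxylp1 of the linker (-0.35, adjusted p = 0.00912), the core protein Tgfbr3 (-0.39, adjusted p = 0.00242) and the heparan sulfotransferase Hs3st3b1 (-0.79, adjusted p = 7.277e-05). In Pkd1KO+ciliaKO mice the same held for Cspg5 (-0.66, adjusted p = 0.00985) and the heparan sulfotransferase Hs3st3a1 (-0.49, adjusted p = 0.0183). Of the 9 breakdown genes, 5 were higher and 1 lower in noncystic males, with Galns at 2.35 (adjusted p = 6.398e-08) and the sulfatase Arsb at 1.05 (adjusted p = 1.911e-05). The sums of the 10 tubule injury markers also differed by sex, with medians of 792.7, 893.8 and 1046 CPM in males and 1613, 1609 and 1761 CPM in females. Spp1 was a large part of these sums, with means of 493.7, 781.2 and 814.9 CPM in males and 1231, 1225 and 1360 CPM in females. In noncystic mice Havcr1, Lcn2, Vcam1, Sox9 and Cd44 also passed, each lower in males. In Pkd1KO mice only Spp1 passed, and in Pkd1KO+ciliaKO mice Havcr1 and Clu did as well. The part of these markers in the sex differences was not tested.

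The genes whose level was most like that of Chpf, by the lower of the correlations on log2(CPM + 0.1) over 24 males and over 21 females, were sought among 12819 genes. Pkd2 led with 0.90 in males and 0.94 in females, followed by Glis2 (0.89 and 0.92), Sema3c (0.88 and 0.91), Agap3 (0.86 and 0.88) and Gnptab (0.86 and 0.86). These correlations include the genotype groups and describe a shared pattern. Among the enzymes Chsy1 came nearest, at rank 804 (0.60 and 0.41), and Chst11 was at rank 9125.

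Of the protein-coding genes within 50 kb of Chpf, 7 were kept in at least 1 sex, and none of those tested passed in Pkd1KO against noncystic mice. Asic4 was tested in males only. The nearest, Obsl1, ends 3 bases away on the same strand and differed by 0.48 in males and 0.27 in females. No kept protein-coding gene overlapped Chpf as counted. The strand setting of the counting was not given in the sources used here. Reads of Chpf2 and Smarcd3, which overlap on opposite strands, may therefore not have been told apart. For Chst15 and Fgfr2, on the same strand, this setting does not decide it.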

How the data were processed

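Tagged ribosomes were pulled from kidneys of 45 mice, 1 library each, and libraries were prepared by ribosomal depletion and sequenced together in a single batch. Per the labels, trimming was with fastp 0.20.0 and alignment to GRCm38.p6 with STAR 2.7.9. The authors deposited whole-number gene counts from featureCounts 2.0.0. Its strand and multimapping settings are not given in the sources used here. They also deposited TPM tables, made separately for each sex and limited to protein-coding genes that reached 6 counts in 20% or more of its mice.

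Counts were tested here within that set in edgeR 4.0.16 (R 4.3.3) by the quasi-likelihood test with TMM scaling, in pairwise fits within a sex, in male against female fits within a genotype and, for sex by genotype interactions, over all mice. P-values were adjusted by Benjamini-Hochberg over all genes tested, with a threshold of 0.05. TPM served for levels between genes. Scripts were tested on simulated data. No 2 libraries of a group agreed within sampling noise.

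Alternatives were DESeq2 1.42.0, DESeq2 size factors, limma 3.58.1 with voom or on log2(TPM + 1), other filters, 1 fit of all genotypes, a replicate block and leaving out libraries. Each replicate number was tested for pairing across genotypes and sexes: in no comparison did every pair correlate over 0.1.

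The enzymes, the gene lists and the rule for named genes were chosen with earlier results of these data known. All 10 enzymes are named, and from each other list the genes that passed in both sexes in 1 direction, or with the smallest p among those past the threshold in a comparison; Chst7, Xylt2, Slc26a2, Papss2, Arsb and the core proteins Sdc1, Csf1 and Cd74 were also named after their values were seen. A gene that the rule picks is not reported here.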

Additional observations from a re-analysis of the deposited data

Results flagged for a closer look

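In 12 of 72 groups of enzyme, Kif3a or Pkd1 levels by genotype and sex, 1 mouse lay apart from the rest of its group by Dixon's criterion, which chance gives in about 1 of 20 groups. Among the polymerase genes, Chpf was 39.19 CPM in Pkd1KO female 6 where the nearest of its group had 30.99, Chpf2 was 16.66 CPM in the same mouse (nearest 12.55) and 23.82 CPM in Pkd1KO male 2 (nearest 18.21), and Chsy3 was 0.8102 CPM in noncystic male 3 (nearest 0.4978). That male also had Chst11 at 26.81 CPM, where the nearest had 69.26.

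Pkd1KO male 4 stood apart in 3 enzymes, with Chst12 at 3.688 CPM (nearest 1.723), Chst15 at 35.69 CPM (nearest 20.86) and Dse at 20.5 CPM (nearest 11.86). Chst15 was 20.15 CPM in Pkd1KO+ciliaKO female 1 (nearest 34.88). Kif3a was 13.95 CPM in noncystic male 8 (nearest 20.52), 6.725 CPM in the library labelled noncystic female 5 (nearest 22.88) and 20.51 CPM in the library labelled Pkd1KO+ciliaKO female 6 (nearest 8.348).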

How the results depend on the processing

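No difference that passed changed direction under any alternative. Of the numbers of enzymes that passed per comparison, 103 of 107 values from other tools, filters and scalings were within 1.5 times the reported number. Within that bound limma voom added Chst12 and Dse between noncystic males and females, and DESeq2 added Chsy1 between Pkd1KO males and females. With limma voom 2 enzymes passed between Pkd1KO and Pkd1KO+ciliaKO females, Chsy1 with Chst11, and 5 between Pkd1KO+ciliaKO males and females, where Chsy1 and Chst12 were added. Between Pkd1KO+ciliaKO and noncystic females the call of Chst11 was lost, leaving 0, with the replicate block (adjusted p = 0.101) and with all genotypes in 1 fit (adjusted p = 0.0583). Leaving out 1 mouse at a time gave 0 to 1 in that comparison, 1 to 1 between Pkd1KO and Pkd1KO+ciliaKO females, 4 to 5 between the sexes in noncystic and in Pkd1KO mice, 3 to 3 in Pkd1KO+ciliaKO mice, and 0 to 0 in the rest. The cause was not tested.

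Replicate numbers are shared between groups, but correlations of same-numbered mice ran from -0.32 to 0.48 and the numbers were not taken to pair mice. With the replicate block Uxs1 did not pass between Pkd1KO and noncystic males (adjusted p = 0.0831), nor did B3galt6 between Pkd1KO and Pkd1KO+ciliaKO males (0.0992) or females (0.115). The male Uxs1 call was also lost with limma on log2(TPM + 1) (0.0678) and with all genotypes in 1 fit (0.0782). Limma on log2(TPM + 1) likewise lost B3galt6 (0.0587) and Xylt2 (0.0547) between Pkd1KO and Pkd1KO+ciliaKO males. Against Pkd1KO+ciliaKO mice the block also ended the calls of Xylt2 (0.0828 in males, 0.149 in females), Extl1 (0.0578 and 0.0866), Gusb in males (0.062) and Chst7 in females (0.0821), with those of Extl2 in both sexes and Hs6st1 in females. Against noncystic mice it ended those of Cd44 (0.0599) and Cd74 (0.0604) in males and Hs6st1 in females. Between Pkd1KO+ciliaKO and noncystic mice it ended those of Dsel, Cspg5 and Gusb (0.066) in males and Uap1 in females. Between the sexes it ended those of Pxylp1 in Pkd1KO and of Cspg5 and Hs3st3a1 in Pkd1KO+ciliaKO mice. Of 110 values of an enzyme in a comparison, 38 that had not passed changed sign in at least 1 alternative. Chsy3, with 21 to 87 counts per library, limits what could be detected for that gene, and groups of 6 to 9 mice set the precision elsewhere.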
